A study of Macaca mulatta with 20 samples.

Results

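The arm difference averaged over both biopsies was examined in rhesus monkey liver: for each of 10 animals the log2 CPM of its 2 libraries (CPM, counts relative to the library total, scaled by TMM, with a prior count of 1) was averaged, and the 5 averages of the caloric restriction (CR) arm were set against the 5 averages of the Control arm. All 20 of the 20 libraries entered. The CR arm held animals 004, 007, 008, 011 and 012, each biopsied at year 0, on enrolment, and at year 2, after 2 years of study diet. The Control arm held animals 001, 005, 006, 009 and 010, biopsied at the same times and fed the control diet. The year 0 biopsies of both arms were taken before the study diet, so "CR" at year 0 names the later arm and not a treatment, and in the average the diet cannot be told apart from differences between the animals of the arms. The labels used here do not give the degree of restriction or the ages and sexes of the animals. A gene is described as having the same direction at both biopsies where the CR minus Control difference of mean log2 CPM had the same sign at year 0 and at year 2.

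The liver is made up mostly of hepatocytes, which secrete plasma proteins, make cholesterol and bile acids and clear foreign compounds through oxidation and then conjugation, for instance to glutathione. Kupffer cells, the resident macrophages of the sinusoids, take up debris and old red blood cells and present antigen on MHC class II molecules. Stellate cells and fibroblasts lay down collagen, sinusoidal endothelium lines the vessels, and blood left in a biopsy adds RNA of red and white blood cells. In bulk tissue, fewer cells of a type and less RNA per cell cannot be told apart.

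Library totals ran from 24135971 to 31440640 counts in the CR arm and from 15421790 to 28850573 counts in the Control arm. Albumin, the main hepatocyte product, took 10.6% to 15.8% of the counts in 18 libraries. Control animals 001 and 009 at year 2 stood apart: albumin took 8.57% and 5.42% of their counts, and they correlated with the remaining libraries at a median of 0.903 and 0.859, where no other library was below 0.956. Each result on year 2 is therefore given with and without these 2 libraries where they bear on it.

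No gene passed an adjusted p of 0.05 when CR was compared with Control on the estimated counts of both biopsies, summed per animal (edgeR's quasi-likelihood test with Benjamini-Hochberg adjustment over 14019 genes, 5 animals against 5). The lowest adjusted p was 0.215, shared by ITGA1 and SNN. Each log2 change given here is from these sums and can differ from the difference of the averaged log2 CPM. At an unadjusted p under 0.05 there were 1750 genes (12.5%), 706 of them higher in CR (5.04% of all genes tested) and 1044 lower (7.45%). Of these, 652 higher genes (4.65%) and 973 lower genes (6.94%) had the same direction at both biopsies. The animal averages of the arms did not overlap in 215 genes that were higher in CR (1.53%) and 222 that were lower (1.58%). DESeq2 on the same sums called 78 genes, 44 higher and 34 lower in CR, and 77 of these had the same direction at both biopsies. Over all genes tested, 53.0% had the same direction. A small p on the sum of both biopsies favours genes whose biopsies agree, so these counts of same direction follow largely from the selection. The number of genes called thus differs between edgeR and DESeq2, and the genes named here are given with their values and with no call. The split between higher and lower genes also moved with the measure: limma on the averaged log2 CPM gave 855 higher and 829 lower, averaged log2(TPM + 1) gave 886 and 418, limma-voom with a correlation within animals gave 740 and 702, edgeR on 20 separate libraries gave 455 and 1237, and the sums without the year 2 libraries of 001 and 009 gave 492 and 422.

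The arm difference of a gene at year 0 was little related to its arm difference at year 2. Of the 14019 genes, 7430 had the same direction at both biopsies (53.0%), 3575 higher in CR (25.5%) and 3855 lower (27.5%). Without the year 2 libraries of Control 001 and 009 the share was 46.1%. Across genes, which are not independent replicates, the correlation of the year 0 and year 2 differences was 0.05, and -0.14 without those 2 libraries. At year 0, every CR library lay above every Control library in 379 genes (2.70%) and below in 293 (2.09%). Of these 672 genes, 309 (46.0%) had the same sign of difference at year 2. At year 2 the libraries of the arms did not overlap in 51 genes that were higher in CR (0.364%) and in 55 that were lower (0.392%), and 48 of these 106 (45.3%) had the same sign at year 0. When the libraries of 1 year were tested alone with edgeR, 23 genes were called at year 0 (20 higher and 3 lower in CR), of which 11 had the same sign of difference at year 2 and 5 did so without Control 001 and 009. At year 2 alone 0 genes were called, and 998 had an unadjusted p under 0.05.

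Separation at both biopsies was rare in either sense. In the same direction it was found in 2 genes (0.0143%), CCDC90A (higher in CR) and TNXB (lower). In opposite directions it was found in 3 genes (0.0214%), APOOL, RAB2A and OPTN, which are named because the count is small. OPTN, the autophagy receptor optineurin, differed by 0.61 log2 units at year 0 and by -0.43 at year 2 (CR minus Control). APOOL, a protein of the inner mitochondrial membrane, differed by -0.33 and then by 0.39, and RAB2A, a GTPase of Golgi traffic, by -0.13 and then by 0.27. Without the year 2 libraries of Control 001 and 009, which leaves 3 Control libraries at that year, 8 genes were separated in opposite directions and 3 in the same one. APOOL (0.16 at year 2) and OPTN (-0.40) were among the 8, and RAB2A (0.12) was not.

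**Figure D1:**
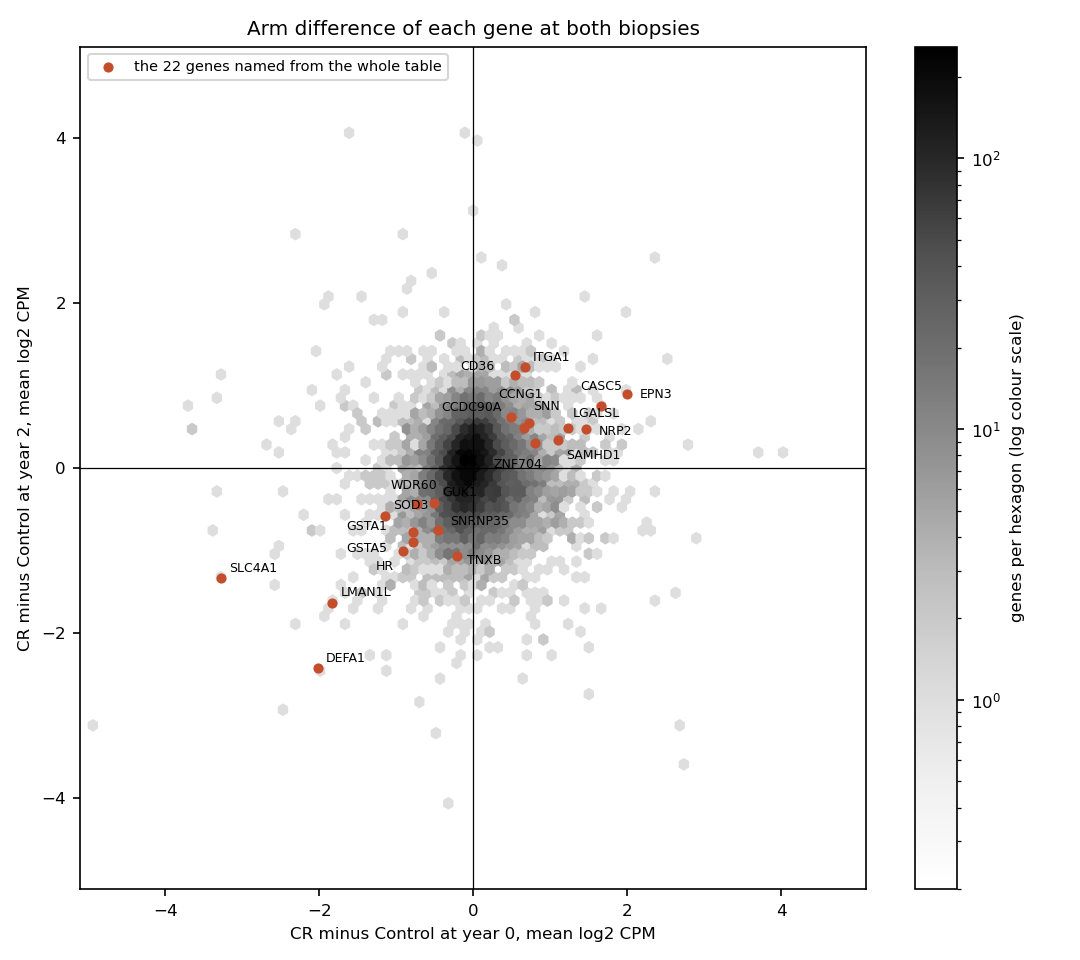
Difference in mean log2 CPM, CR minus Control, at year 0 (x axis) and year 2 (y axis) for the 14019 genes tested, as hexagons shaded by the number of genes on a log colour scale, with the 22 genes named from the whole table in orange. The cloud has little slope (correlation across genes 0.05), and the named genes, chosen for the same direction at both biopsies, lie at the upper right and the lower left.

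The 22 genes named from the whole table were taken by the size of their p among genes with the same direction at both biopsies, 10 on each side, plus the pair separated at both. That choice used the contrast itself, so their levels are a description. Just inside on the higher side was NRP2 (log2 change 0.95) and just outside FPR3 (0.93), and on the lower side WDR60 (-0.62) and C21orf33 (-0.68). DESeq2 put 21 of the 22 under an adjusted p of 0.05, TNXB being the exception. It was run on the same sums that gave the choice, so this share follows largely from the selection.

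Among genes higher in CR at both biopsies, the clearest levels were those of SNN, the small membrane protein stannin. In CR animals (004, 007, 008, 011, 012) SNN measured 20.6, 23.0, 22.2, 21.8 and 20.8 CPM at year 0 and 15.6, 13.9, 16.6, 21.4 and 17.2 CPM at year 2. In Control animals (001, 005, 006, 009, 010) it measured 13.6, 12.2, 10.6, 15.4 and 14.0 CPM at year 0 and 9.53, 11.8, 17.1, 8.15 and 12.4 CPM at year 2. The arms did not overlap at year 0, and at year 2 a single Control library (006) reached into the CR range. The lowest year 2 values were those of Control 001 and 009, and the year 2 difference of 0.55 log2 units became 0.29 without them. The animal averages were 4.25 ± 0.11 log2 CPM in CR and 3.61 ± 0.12 in Control (SD, n = 5 each), with a log2 change of 0.64 ± 0.10 (SE, edgeR adjusted p = 0.215). SNN was also among the 23 genes called when the year 0 libraries were tested alone. Those libraries are part of the sums by which SNN was chosen, so that call is not separate support.

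CCDC90A (renamed MCUR1, a regulator of the mitochondrial calcium uniporter) was the gene higher in CR without overlap at both biopsies. In CR animals it measured 7.76, 9.58, 9.38, 8.58 and 9.22 CPM at year 0 and 8.21, 8.22, 7.24, 7.65 and 7.59 CPM at year 2. In Control animals it measured 6.15, 6.57, 4.30, 4.64 and 6.80 CPM at year 0 and 4.97, 7.22, 5.41, 5.06 and 5.26 CPM at year 2. The gap at year 2 was narrow, with 7.24 CPM in CR 008 against 7.22 CPM in Control 005, and it closed under RLE scaling, which left TNXB as the 1 gene separated in the same direction at both biopsies. The log2 change over both biopsies was 0.57 ± 0.12 (SE, edgeR adjusted p = 0.384).

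CD36, a receptor that takes up long-chain fatty acids and oxidized lipoproteins in hepatocytes, macrophages and endothelium, had higher averages in CR without overlap, but its values in single biopsies overlapped. CR animals had 150, 251, 228, 245 and 272 CPM at year 0 and 168, 140, 130, 264 and 111 CPM at year 2. Control animals had 157, 163, 140, 173 and 143 CPM at year 0 and 41.8, 81.7, 113, 35.1 and 132 CPM at year 2. The lowest values at year 2 were those of Control 001 and 009. The log2 change of 0.75 ± 0.14 (edgeR adjusted p = 0.384) became 0.47 without these 2 libraries.

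ITGA1, the integrin alpha 1 chain that binds collagen and laminin, rested on the same libraries to a larger degree. CR animals had 73.5, 65.1, 62.7, 68.5 and 69.8 CPM at year 0 and 41.9, 53.0, 47.0, 62.9 and 24.7 CPM at year 2. Control animals had 63.0, 20.3, 32.8, 67.5 and 49.8 CPM at year 0 and 11.5, 52.1, 39.1, 5.52 and 17.8 CPM at year 2. Both arms overlapped at each biopsy, although the averages did not. The log2 change was 0.63 ± 0.10 (edgeR adjusted p = 0.215) and 0.27 without the year 2 libraries of 001 and 009. The difference of the averaged log2 CPM was 0.95.

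The other genes on the higher side showed their larger difference mostly at year 0. SAMHD1, a hydrolase of deoxynucleotides that is abundant in myeloid cells, differed by 1.10 log2 units at year 0 and by 0.34 at year 2. NRP2, a co-receptor for semaphorins and VEGF, differed by 1.47 at year 0 and by 0.48 at year 2. The year 2 differences of SAMHD1 and NRP2 turned to -0.18 and -0.26 without Control 001 and 009, so the same direction of these genes rested on those libraries. CASC5 (also KNL1, a scaffold of the kinetochore) differed by 1.67 and 0.75, and LGALSL, a galectin-like protein, by 1.24 and 0.49. ZNF704, a zinc finger protein, differed by 0.81 and 0.31, while CCNG1, the p53 target cyclin G1, differed by 0.49 and 0.62. Without Control 001 and 009 the year 2 difference of CCNG1 was 0.16, and its log2 change of 0.49 became 0.30. That of LGALSL at year 2 became 0.86.

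Animals that were high at one biopsy were often not the ones high at the other. EPN3, an epsin of clathrin-coated vesicles, had 9.25 and 11.9 CPM in CR 011 and 012 at year 0, with 0.382 to 0.703 CPM in the other CR animals. At year 2 it had 6.80 and 4.79 CPM in CR 007 and 008, with 0.357 to 0.902 CPM in the other CR animals. Control animals had 0.261 to 0.683 CPM at year 0 and 0.463 to 1.17 CPM at year 2. Its log2 change of 2.51 ± 0.52 in the sums thus came from 4 libraries of different animals. The difference of the averaged log2 CPM was 1.45, and the averages of the arms overlapped. LGALSL had its highest CR value, 18.6 CPM, in 012 at year 0, and 3.18 CPM in the same animal at year 2.

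**Figure D2:**
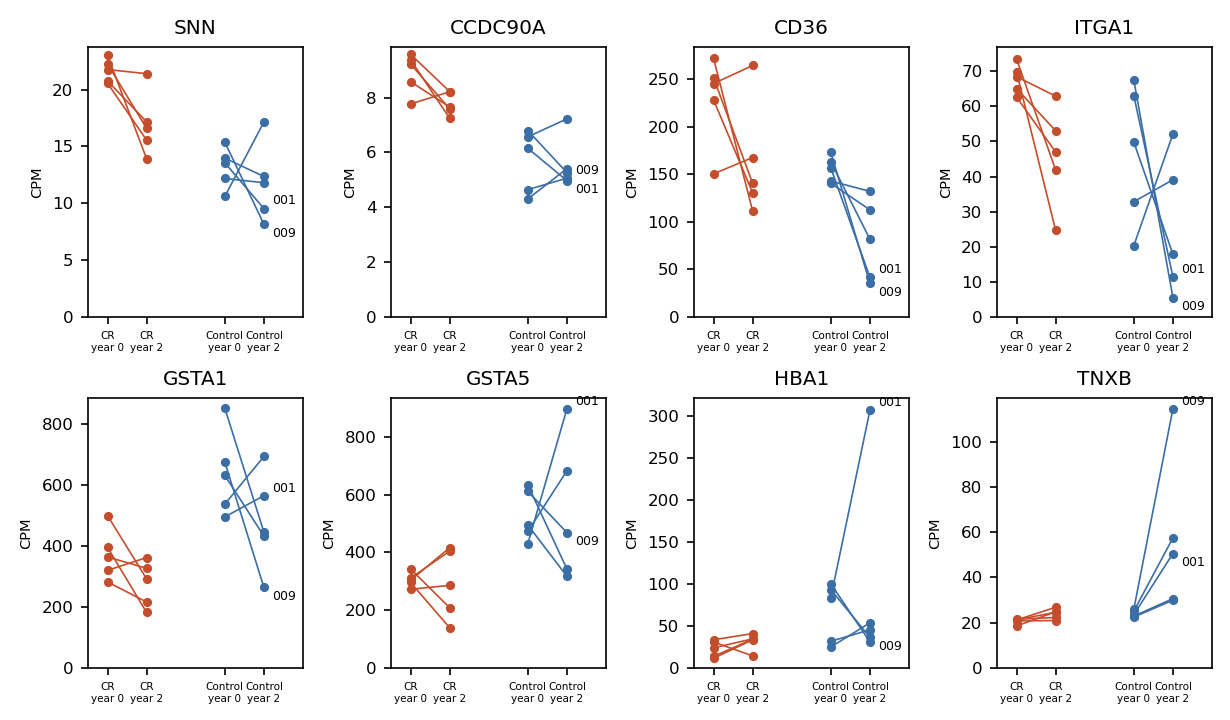
TMM-scaled CPM of 8 genes in each library, with both biopsies of an animal joined by a line, CR in orange to the left of Control in blue, and Control 001 and 009 marked at year 2. SNN and CCDC90A lie higher in CR at both biopsies, GSTA1, GSTA5, HBA1 and TNXB lie lower, and in CD36, ITGA1 and TNXB the year 2 gap is widened by Control 001 and 009.

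On the lower side in CR stood a pair of alpha-class glutathione S-transferases, GSTA1 and GSTA5, which conjugate electrophiles to glutathione in hepatocytes. GSTA1 had 365, 321, 283, 500 and 396 CPM in CR animals at year 0 and 327, 363, 216, 293 and 182 CPM at year 2. Control animals had 496, 853, 633, 676 and 538 CPM at year 0 and 566, 446, 433, 265 and 695 CPM at year 2. CR 011 at year 0 and Control 009 at year 2 were the libraries that crossed into the range of the other arm. The averages were 8.29 ± 0.27 log2 CPM in CR and 9.07 ± 0.22 in Control (SD, n = 5 each) and did not overlap. The log2 change was -0.74 ± 0.14 (edgeR adjusted p = 0.384), and -0.84 without the year 2 libraries of 001 and 009.

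GSTA5 had 311, 303, 272, 343 and 296 CPM in CR animals at year 0 and 404, 416, 286, 208 and 139 CPM at year 2. Control animals had 430, 633, 495, 611 and 473 CPM at year 0 and 897, 343, 317, 468 and 682 CPM at year 2. The arms were apart at year 0 and overlapped at year 2, and the log2 change was -0.79 ± 0.16 (edgeR adjusted p = 0.384). In the RefSeq annotation of assembly T2T-MMU8v2.0 the entry with the synonym GSTA5 overlaps GSTA1, and the coding sequences of this family are alike, so how their reads were divided is uncertain and they are not counted as separate observations. In the test of year 0 alone GSTA5 was among the 3 genes called lower. That test used part of the same sums and is not separate support.

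SLC4A1, the anion exchanger of the red cell membrane, was the red blood cell gene among those on the lower side. It had 0.477, 0.592, 0.0312, 0.397 and 0 CPM in CR animals at year 0 and 0.451, 0.213, 0.315, 0.693 and 0.238 CPM at year 2. Control animals had 1.29, 4.48, 1.19, 3.62 and 1.12 CPM at year 0 and 4.06, 0.692, 1.55, 0.309 and 0.503 CPM at year 2. The arms did not overlap at year 0 and did at year 2, and the log2 change was -2.39 ± 0.44 (edgeR adjusted p = 0.384). HBA1, an alpha globin gene named from the list of red blood cell genes, had 11.5 to 33.5 CPM in CR animals at year 0 and 14.3 to 40.9 CPM at year 2, against 24.9 to 100 CPM in Control animals at year 0 and 30.9 to 307 CPM at year 2. The value of 307 CPM was that of Control 001, and the year 2 difference of -1.04 log2 units became -0.52 without Control 001 and 009. Its log2 change of -1.49 became -0.93 without Control 001. Globin copies are near-identical, so the level of one copy is uncertain.

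TNXB, an extracellular matrix glycoprotein of the tenascin family, was the gene lower in CR without overlap at both biopsies. CR animals had 20.8, 18.5, 21.2, 21.5 and 21.2 CPM at year 0 and 20.9, 24.8, 26.8, 22.3 and 24.6 CPM at year 2. Control animals had 23.5, 22.9, 22.5, 26.0 and 25.1 CPM at year 0 and 50.5, 30.6, 29.9, 114 and 57.5 CPM at year 2. The gap was small at year 0 (-0.21 log2 units) and larger at year 2 (-1.06, and -0.67 without Control 001 and 009). The log2 change of -0.83 ± 0.24 (edgeR adjusted p = 0.384) became -0.52 without Control 009 and -0.36 without the year 2 libraries of 001 and 009. CYP21A2, the steroid 21-hydroxylase gene, overlaps TNXB in that RefSeq annotation and was chosen for its place and not by the rule. It had a log2 change of -0.92 ± 0.21 (edgeR adjusted p = 0.384), with differences of -0.86 at year 0 and -0.90 at year 2 (-0.47 without Control 001 and 009). The labels used here give no strand setting for the counting, so reads of these overlapping genes cannot be told apart.

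The remaining genes on the lower side were of several kinds. SNRNP35, a protein of the minor spliceosome, differed by -0.46 at year 0 and by -0.75 at year 2, and its log2 change of -0.64 became -0.34 without the year 2 libraries of 001 and 009. SOD3, the extracellular superoxide dismutase, differed by -1.15 and -0.58 and did not overlap at year 0. HR, the corepressor hairless, differed by -0.91 and -1.01, WDR60, a chain of the dynein motor of cilia, by -0.72 and -0.43, and GUK1, a guanylate kinase, by -0.51 and -0.42. Without Control 001 and 009 the year 2 differences were -0.63 for HR, -0.15 for WDR60 and -0.12 for GUK1, and the log2 change of GUK1, -0.48, became -0.25. LMAN1L, a lectin of the secretory pathway, stood at 0.0312 to 0.316 CPM in CR and at 0.103 to 3.30 CPM in Control. DEFA1, an alpha defensin of neutrophil granules, was at 0 CPM in 7 of the 10 CR libraries and in 3 of the 10 Control libraries, so its log2 change of -3.60 ± 0.77 rests on few reads. Its difference of averaged log2 CPM was -2.22.

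**Figure D3:**
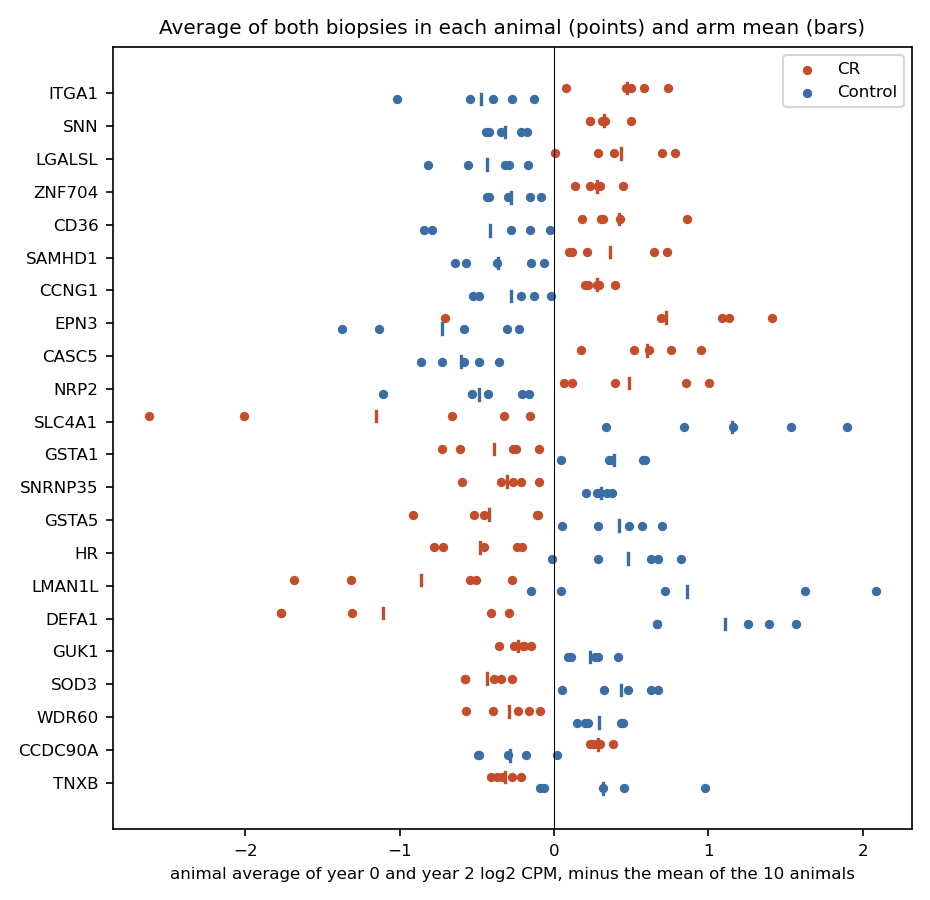
Average of the year 0 and year 2 log2 CPM of each animal, minus the mean of the 10 animals, for the 22 named genes, with CR (orange) drawn above Control (blue) in each row and bars at the arm means. The arms do not overlap in 21 genes and overlap in EPN3, as follows from the choice of the genes.

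Gene groups were described by 28 lists chosen with earlier results of these data known, and no list member passed an adjusted p of 0.05 (0% of all genes did). Red blood cell genes were the list with the largest median difference: all 10 tested members were lower in CR and 0 were higher (45.6% of all genes were higher), 7 had an unadjusted p under 0.05 (7.45% of all genes were lower at that level), and 8 had the same direction at both biopsies (53.0% of all genes). The median log2 change was -1.30, against -0.03 over all genes. By year, the median difference was -1.32 at year 0 and -0.91 at year 2, or -0.63 without Control 001 and 009. The averages of the list in single animals ran from -0.91 to 0.19 mean log2 CPM in CR and from 0.26 to 1.25 in Control. The members include globins (HBA1, HBB) and the heme enzyme ALAS2. HBD, GYPB, AHSP, EPB42 and KLF1 did not reach the filter on low counts.

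Summed over the list, red cell genes had 67.7 to 347 CPM in CR at year 0 and 139 to 277 CPM in CR at year 2, against 151 to 587 CPM in Control at year 0 and 183 to 779 CPM in Control at year 2. Some granule genes of neutrophils had the same sign. MPO, myeloperoxidase, had a log2 change of -2.53 ± 0.57, LTF, lactoferrin, one of -1.41 ± 0.34, and PRTN3, a granule protease, one of -1.84 ± 0.72. MPO averaged -3.24 log2 CPM in CR and -1.40 in Control, so its change rests on few reads. LTF was also low, at -0.89 log2 CPM in CR and 0.16 in Control. LCN2, lipocalin 2, was at 0.51 ± 0.33, and ELANE, AZU1 and CTSG did not reach the filter. PRTN3 and LCN2 were chosen after their values were seen. FCGR3B, an Fc receptor gene counted in the neutrophil list, whose reads may be shared with any close copy, was at 0.39 ± 0.15. Its sign differed between biopsies, at 1.03 log2 units at year 0 and -0.32 at year 2 (-0.55 without Control 001 and 009). The 15 tested members of that list stood at 8 higher and 7 lower (45.6% of all genes were higher). The share of blood in the biopsies was not measured, and its part in these differences was not tested.

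Genes of Kupffer cells, myeloid cells and antigen presentation were higher in the CR arm at year 0 and mostly lower at year 2. Of the 40 tested genes of myeloid receptors and signalling, 40 were higher in CR at year 0 (48.1% of all genes) and 11 at year 2 (49.9% of all genes). Their median difference was 0.80 log2 units at year 0 and -0.22 at year 2. For the 20 Kupffer cell and macrophage markers these medians were 0.75 and -0.27, and for the 14 genes of MHC class II presentation 1.06 and -0.23. Without Control 001 and 009 the year 2 medians were -0.46, -0.39 and -0.41. The averages therefore combined opposite differences: the median log2 changes over both biopsies were 0.31, 0.20 and 0.31, and the same direction was found in 11 of 40, 1 of 20 and 6 of 14 members, against 53.0% of all genes.

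CLEC7A, the beta-glucan receptor dectin-1, shows this pattern. CR animals had 5.54, 4.14, 5.42, 3.45 and 3.23 CPM at year 0 and 1.13, 1.49, 3.50, 2.00 and 2.26 CPM at year 2. Control animals had 1.44, 0.783, 0.876, 1.34 and 1.83 CPM at year 0 and 0.507, 2.80, 3.82, 1.85 and 2.15 CPM at year 2. The arms did not overlap at year 0 and were mixed at year 2, where the difference was 0.05 log2 units and -0.57 without Control 001 and 009. MAMU-DPA, an MHC class II alpha chain, had 25.0 to 59.0 CPM in CR and 9.08 to 18.7 CPM in Control at year 0, and 8.72 to 29.2 CPM in CR and 9.78 to 41.5 CPM in Control at year 2. MAMU-DOB, a chain of the class II modulator DO, was an exception in its list, with a log2 change of -1.31 ± 0.40 and differences of -1.14 at year 0 and -1.62 at year 2. Genes of the MHC belong to a multigene family, and how reads were divided among its copies is uncertain.

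Macrophage marker levels moved with the myeloid genes. Summed over the 20 markers they had 1771 to 2066 CPM in CR and 1178 to 1761 CPM in Control at year 0, and 941 to 1893 CPM in CR and 1284 to 2555 CPM in Control at year 2. In 2 CR animals, 004 and 007, the mean log2 CPM of these markers was lower at year 2 than at year 0 by 1.41 and 1.15, while in CR 008, 011 and 012 it differed by at most 0.06. In Control animals 001, 005 and 006 it was higher at year 2 by 0.51, 0.95 and 1.49, and in 009 and 010 it changed by -0.17 and -0.31. The turn of the arm difference thus came with changes in both arms. SAMHD1, NRP2, CD36 and CLEC7A are known from macrophages among other cells, and the part of the macrophage share in their differences was not tested.

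The interferon response genes were higher in the CR arm at year 0, and their median difference was small at year 2. Of 47 tested, 39 had a positive log2 change (45.6% of all genes), 15 had an unadjusted p under 0.05 and a positive change (5.04% of all genes), and 23 had the same direction at both biopsies (53.0% of all genes did). At year 0, 41 were higher in CR (48.1% of all genes), and at year 2, 25 were (49.9%). Without Control 001 and 009, 32 were higher at year 2, and 28 had the same direction at both biopsies (46.1% of all genes). The median difference was 0.53 at year 0 and 0.01 at year 2 (0.08 without Control 001 and 009). CXCL11, a chemokine for T cells, had a log2 change of 0.71 ± 0.16 and GBP1, a guanylate-binding protein, one of 0.87 ± 0.23. Both lay above the Control range in every CR library at year 0. At year 2 they differed by 0.31 and 0.18, or by 0.03 and 0.11 without Control 001 and 009. T, NK and B lymphocyte genes had a median of 0.48 at year 0 and -0.26 at year 2 and a log2 change over both of 0.06.

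Cell cycle genes had medians of like size at both biopsies, at 0.34 at year 0 and 0.34 at year 2 (0.24 without Control 001 and 009). Of 37 tested, 26 had a positive log2 change (45.6% of all genes) and 27 the same direction at both biopsies (53.0%), but a single one, KIF20A, a mitotic kinesin, had an unadjusted p under 0.05. TOP2A, the topoisomerase of dividing cells, ranged over 2.03 to 3.85 CPM in CR and 0.518 to 4.56 CPM in Control at year 0, and over 0.947 to 8.15 CPM in CR and 0.608 to 5.61 CPM in Control at year 2. The arms overlapped at both biopsies.

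**Figure D4:**
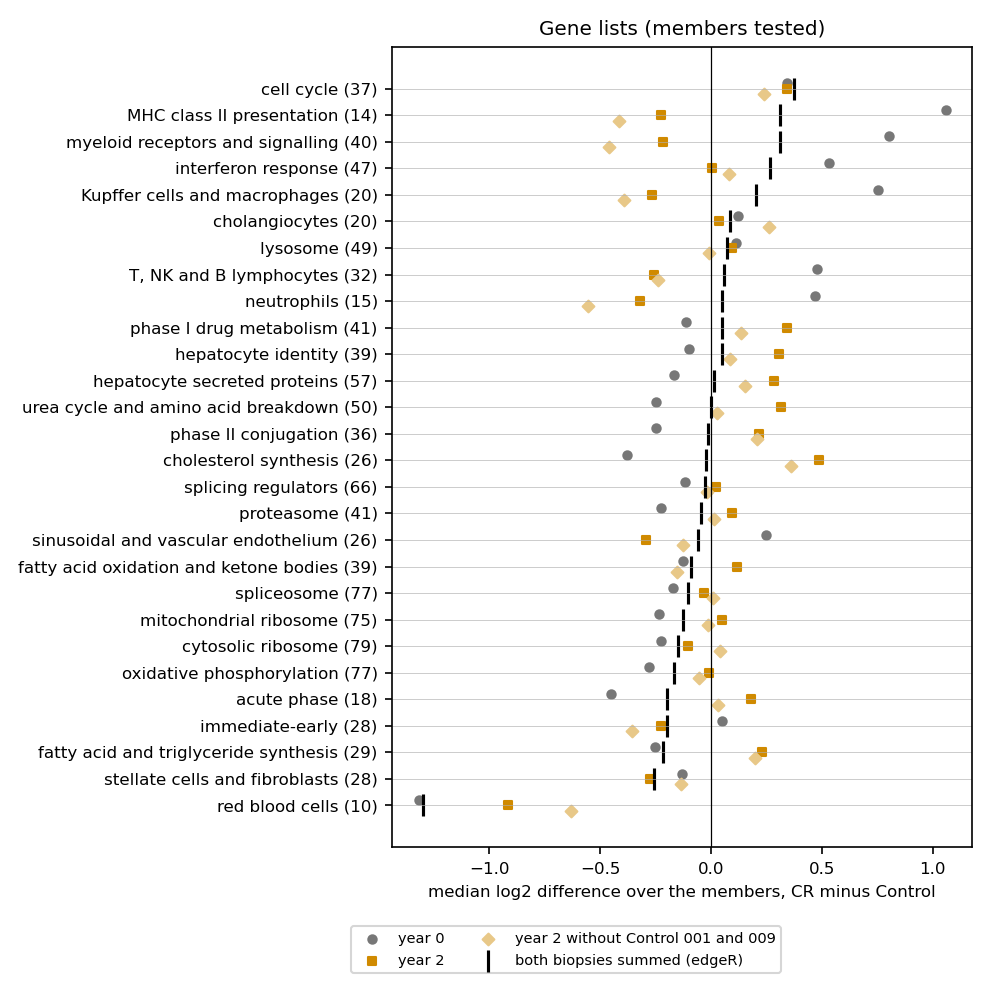
Median over the tested members of 28 gene lists (number of members in brackets) of the CR minus Control difference in mean log2 CPM at year 0 (grey), at year 2 (dark yellow) and at year 2 without Control 001 and 009 (pale), with the log2 change of the summed biopsies as a black bar. Red blood cell genes lie at the low end at both biopsies and cell cycle genes on the positive side at both, while myeloid and MHC class II genes lie at 0.80 and 1.06 at year 0 and at -0.22 and -0.23 at year 2.

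Cholesterol synthesis showed the opposite order of signs. Of its 26 genes, 23 were lower in CR at year 0 (48.1% of all genes were higher) and 21 were higher in CR at year 2 (49.9% of all genes). The medians were -0.38 and 0.49 (0.36 without Control 001 and 009), and the median log2 change over both biopsies was -0.02. The same direction was found in 6 of 26, against 53.0% of all genes. TM7SF2, a sterol reductase, had a log2 change of -0.42 ± 0.17 (-0.22 without Control 001), and NSDHL, a sterol dehydrogenase, one of -0.29 ± 0.12. The summed level was 2962 to 4278 CPM in CR and 4179 to 5648 CPM in Control at year 0, and 3515 to 5829 CPM in CR and 1966 to 4599 CPM in Control at year 2.

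In RNA processing, the subject named in the study's title, spliceosome genes were lower in CR by small amounts, mostly at year 0. Splicing regulators had a median near that of all genes. Of 77 spliceosome components, 61 had a negative log2 change and 16 a positive one (45.6% of all genes were positive). Of the 61, 12 had an unadjusted p under 0.05 (7.45% of all genes), and 2 positive ones reached that level (5.04% of all genes). The median was -0.10, at -0.17 at year 0 and -0.03 at year 2 (0.01 without Control 001 and 009). SNRPF, a core protein of the snRNPs, had a log2 change of -0.33 ± 0.11 and SNRNP48, of the minor spliceosome, one of -0.35 ± 0.13. Among 66 splicing regulators the median was -0.03, against -0.03 over all genes. At an unadjusted p under 0.05, 6 were lower (7.45% of all genes) and 4 higher (5.04% of all genes). TRA2A, a splicing activator, had a log2 change of -0.51 ± 0.14 and QKI, an RNA-binding regulator, one of 0.28 ± 0.09. Without the year 2 libraries of 001 and 009 the log2 changes of SNRNP48, TRA2A and QKI became -0.16, -0.24 and 0.13.

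Mitochondrial and ribosomal genes were lower in CR by small amounts, mostly at year 0. Of 77 genes of oxidative phosphorylation, 68 had a negative log2 change and 9 a positive one (45.6% of all genes were positive). Of the 68, 18 had an unadjusted p under 0.05 (7.45% of all genes). The median difference was -0.28 at year 0 and -0.01 at year 2 (-0.06 without Control 001 and 009). The same direction at both biopsies was found in 41 of the 77 (53.0% of all genes). Without Control 001 and 009 it was found in 53 (46.1% of all genes), and 23 of the 77 were then higher in CR at year 2. ATP5I, a subunit of ATP synthase, had a log2 change of -0.53 ± 0.15 and did not overlap at year 0. Its year 2 difference of -0.57 became -0.11, and its log2 change -0.23, without the year 2 libraries of 001 and 009. Of 79 cytosolic ribosomal protein genes, 79 were lower in CR at year 0 (48.1% of all genes were higher). At year 2, 53 were lower and 26 higher (49.9% of all genes were higher), and the median difference was -0.10. Leaving out Control 001 and 009 turned the year 2 sign of the list: 63 of the 79 then stood above Control (median 0.04). In that setting 16 were lower at both biopsies (46.1% of all genes had the same direction). RPL36 had 45.2 to 54.7 CPM in CR and 53.4 to 83.1 CPM in Control at year 0, and its log2 change of -0.56 became -0.20 without the year 2 libraries of 001 and 009. Of 75 mitochondrial ribosomal genes, 60 had a negative log2 change and 15 a positive one (45.6% of all genes), with median differences of -0.24 at year 0 and 0.05 at year 2 (-0.01 without Control 001 and 009). MRPS25 had a log2 change of -0.48 ± 0.13, and of -0.28 without those year 2 libraries.

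Stellate cell and fibroblast genes were lower in CR in 20 of 28 cases and higher in 8 (45.6% of all genes were higher). Of the 20, 8 had an unadjusted p under 0.05 (7.45% of all genes). The same direction at both biopsies was found in 22 (53.0% of all genes), and in 18 without Control 001 and 009 (46.1% of all genes). The medians were -0.13 at year 0 and -0.28 at year 2, or -0.14 without Control 001 and 009. COL6A2, a chain of collagen VI, had 27.3 to 36.4 CPM in CR and 38.0 to 58.0 CPM in Control at year 0, without overlap. At year 2 it had 36.6 to 45.7 CPM in CR and 30.3 to 159 CPM in Control, the highest being Control 009, and its year 2 difference of -0.68 became -0.14 without Control 001 and 009. Its log2 change of -0.76 became -0.34 without them.

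Hepatocyte genes themselves had medians near that of all genes over both biopsies, at 0.01 for 57 secreted proteins and 0.05 for 39 genes of hepatocyte identity. At year 2 they were higher in CR (medians 0.28 and 0.31, or 0.15 and 0.09 without Control 001 and 009), and at year 0 lower (-0.17 and -0.10). Of the 57, 30 had a positive log2 change and 27 a negative one (45.6% of all genes were positive). ALB, albumin, had a log2 change of 0.37 ± 0.13 (edgeR adjusted p = 0.387). It differed by 0.11 at year 0 and by 0.78 at year 2 (0.40 without Control 001 and 009). Its year 2 libraries and its averages did not overlap, the averages narrowly (17.02 log2 CPM in CR 004, 17.01 in Control 010). CBS, an enzyme of the transsulfuration of homocysteine, did not overlap at year 2 and was lower in CR, with 147 to 220.2 CPM in CR and 220.4 to 284 CPM in Control (log2 change over both biopsies -0.29 ± 0.09). UGT2A3, a glucuronosyltransferase, had a log2 change of 0.75 ± 0.20 (0.34 without the year 2 libraries of 001 and 009), and FADS1, the delta-5 fatty acid desaturase, one of 0.71 ± 0.19. SAA2, an acute phase gene, had 54.5 to 260.1 CPM in the CR libraries, against 3858 CPM in Control 006 at year 0, 13080 CPM in Control 001 at year 2 and 65.1 to 322 CPM in the other Control libraries. Its log2 change of -3.94 ± 1.08 was weighted to these high libraries: it was -2.55 without Control 001 and -2.30 without the year 2 libraries of 001 and 009. The difference of the averaged log2 CPM was -1.69. Reads of the near-identical SAA genes may be shared.

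The change of the arm difference between biopsies was tested directly, in a fit of 20 libraries with a term per animal. No gene passed an adjusted p of 0.05 for this interaction (lowest 0.576), while DESeq2 called 42. In edgeR 959 genes had an unadjusted p under 0.05 (6.84%). Among myeloid genes 18 of 40 had such an unadjusted p, all with a negative sign (a lower CR minus Control difference at year 2), among Kupffer cell markers 8 of 20, and among MHC class II genes 7 of 14, again all negative. Among cholesterol synthesis genes 11 of 26 did so, all with a positive sign. Among red blood cell genes 0 of 10 did. The lists were chosen with earlier results of these data known, so these counts and signs are a description and no separate evidence of a change. CLEC7A had an interaction of -1.81 ± 0.65 log2 units (edgeR adjusted p = 0.683). SNN, CCDC90A, GSTA1 and GSTA5 had interactions of -0.18 ± 0.30, -0.18 ± 0.25, 0.0044 ± 0.40 and -0.11 ± 0.45. These genes were chosen for the same direction at both biopsies, so small interactions follow in part from that choice. Among other genes so chosen, TNXB stood at -0.84 ± 0.32, CASC5 at -0.96 ± 0.66, CD36 at 0.59 ± 0.47 and SLC4A1 at 1.76 ± 1.20.

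**Figure D5:**
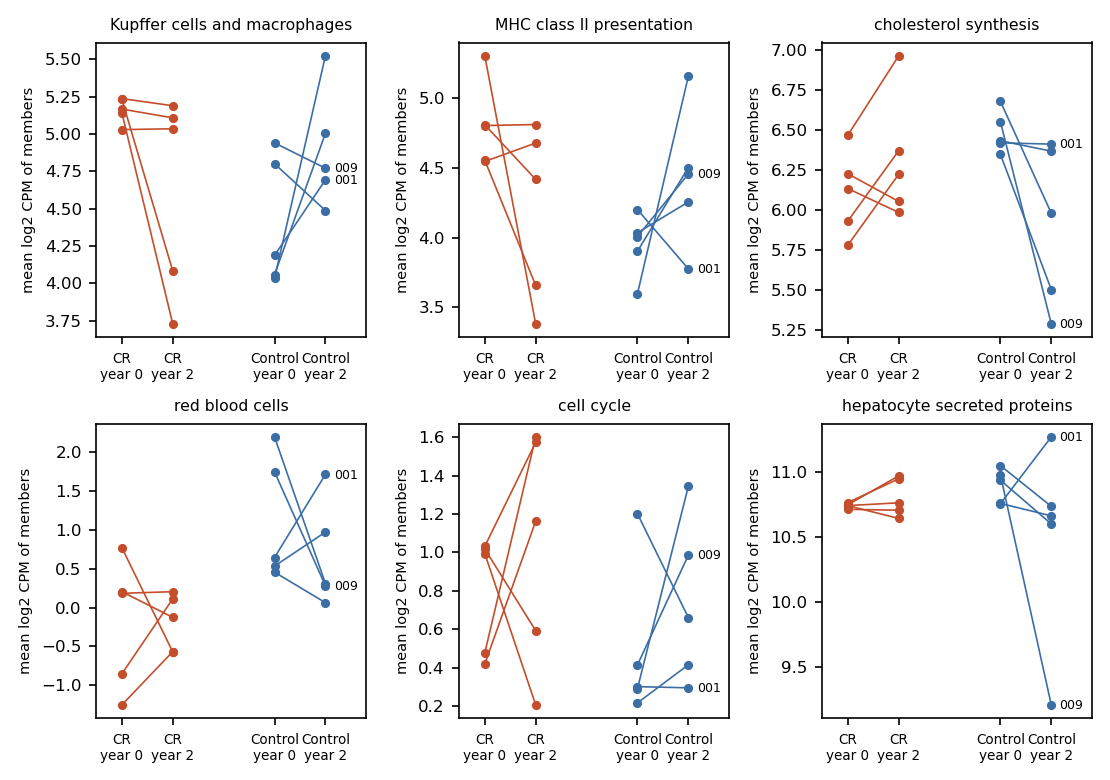
Mean log2 CPM over the members of 6 gene lists in each library, with both biopsies of an animal joined by a line, CR (orange) to the left of Control (blue), and Control 001 and 009 marked at year 2. Kupffer cell and MHC class II genes start higher in CR at year 0 and mix at year 2, cholesterol synthesis starts lower in CR, red blood cell genes lie lower in CR at both biopsies, and Control 009 at year 2 is low in hepatocyte secreted proteins.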

How the data were processed

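Liver biopsies of 10 rhesus monkeys at 2 times gave 20 RNA libraries, made with TruSeq kits and sequenced paired-end per the labels' protocols. The authors deposited expected counts per gene, not normalized and with 4.37% of the values not whole, and TPM per gene, scaled to a fixed sum per library. The submitters' processing notes name STAR, RSEM, DESeq2 and Mmul_8.0.1 (rheMac8), with no versions of the tools, no gene annotation and no strand setting. Transcript tables, FPKM tables and the authors' table of an unnamed comparison were left aside.

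After rounding of the counts, both biopsies of an animal were summed, since the animal is the replicate of an arm. Of 18288 genes (15272 symbols matched a gene name table), 14019 passed filterByExpr. The sums, 43731917 to 59700913 counts per animal, were TMM-scaled and tested in edgeR 4.0.16 (R 4.3.3; quasi-likelihood, robust, Benjamini-Hochberg, threshold 0.05, two-sided). Each log2 change is given with its SE, taken from the log2 change and the F value. The interaction was fitted on 20 libraries with a term per animal. DESeq2 1.42.0 and limma 3.58.1, on averaged log2 CPM or averaged log2(TPM + 1), were alternatives. The scripts were tested on simulated data. No 2 libraries held identical values.

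The labels tie both biopsies to an animal by its number. The correlation of the deviations of an animal's biopsies from their group means ran from -0.24 to 0.16. An animal's deviations from its group were thus hardly shared between its biopsies. Whole libraries were alike, with correlations of log2 CPM from 0.840 to 0.986 between any 2 of them. Nothing in the labels gives a batch.

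The members and lists were chosen with earlier results of these data known. Named genes were the 10 of smallest p per direction with the same direction at both biopsies, the genes separated at both biopsies, and the 3 of smallest p in each of 28 lists. Of these genes 3 are not reported here, and 99 remain. Symbols that are only identifiers were left out.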

Additional observations from a re-analysis of the deposited data

Results flagged for a closer look

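In 254 groups of 5 animal averages (named genes and gene lists, in each arm), 19 held a highest or lowest animal far from the other 4 of its arm, and chance flags about 1 in 20 groups. In the CR arm these were ATP5I at 6.22 mean log2 CPM and the mitochondrial ribosome list at 4.66, both high in animal 012, SAA4 at 10.15 and the cholesterol synthesis list at 6.72, both high in 004, CLEC7A at 2.14, high in 008, and SNRNP48 at 3.46, low in 011.

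In the Control arm, animal 001 was far from the others in CD3G (0.12), CELF2 (0.061), MRC1 (5.41) and VSIG4 (4.32), in MRPS25 (5.88), PSMC3 (6.16) and TM7SF2 (8.56), and in the fatty acid and triglyceride synthesis list (6.76 mean log2 CPM). Animal 009 was far from the others in ALB (16.07) and in the lists for oxidative phosphorylation (5.84), phase II conjugation (6.55) and proteasome (5.26), each of them low. Animal 006 was far from the others in CD3E (1.06). Control 001 and 009 are the animals whose year 2 libraries stood apart, and the part of those libraries in these values was not tested one by one.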

How the results depend on the processing

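The count of called genes was 0 under each alternative other than DESeq2 (78 genes) and the year 0 libraries alone (23). Genes at an unadjusted p under 0.05, 1750 in the main test, numbered 998 with year 2 alone, 914 without the year 2 libraries of Control 001 and 009, and 1131 to 2084 when single animals were left out, the lowest without CR 011 and 1139 without CR 008. The replicate block (limma-voom with a correlation within animals, -0.07) called 0 genes with 1442 at that level. For the interaction, DESeq2 called 42, the fit without animals 001 and 009 called 1, leaving out single animals gave 0 to 1 (1 without Control 001), and the fit with no replicate block called 0 with 1384 at an unadjusted p under 0.05. The share of genes with the same direction ran from 46.1% to 56.2% over its alternatives, with 48.3% for TPM. Separation at both biopsies was found in 1 gene under RLE scaling, with no filter and with log2(TPM + 1), in 3 without the year 2 libraries of 001 and 009 (PEX7, RFXAP and TNXB, of which TNXB is also in the main count), and in 1 to 7 genes when single animals were left out (1 without Control 009, 4 without CR 012, 6 without Control 005 or 010, 7 without Control 006). Of 2170 values of the 99 named genes under alternatives, 8 changed sign. With year 2 alone the log2 change was -0.0120 for CELF2, -0.1074 for CLEC7A, -0.3290 for FCGR3B, -0.1910 for MAMU-DPA, -0.0743 for MRC1, -0.0944 for MSR1, 0.0423 for NSDHL and -0.1069 for VSIG4. In FCGR3B, MAMU-DPA, MRC1, NSDHL and VSIG4 the difference of mean log2 CPM also has the other sign at year 2, while in CELF2, CLEC7A and MSR1 it does not. The causes of these and the other shifts were not tested. Low-count genes such as DEFA1, MPO and SLC4A1 are limited by depth.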
